A study of Mus musculus with 2 samples.

Results

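The genes described here are 10 activity-induced genes of the prefrontal cortex (PFC), namely Arc, Npas4, Homer1, Nptx2, Btg2, Gadd45b, Dusp1, Dusp5, Dusp6 and Ier2. They were found on the arrays by matching the RefSeq accession of each probe, without its version, to a mouse gene symbol. All 10 were matched, with 15 probes of the 55681 probes on each array and 10 of the 20660 genes with a symbol. RNA of male C57Bl/6 N sea mice, 9 to 10 weeks old at the start of the experiment, was pooled into 1 control pool and 1 pool of mice exposed to chronic mild stress (CMS), and each pool was hybridized to 1 one-color Agilent mouse array. The control mice received ordinary care in group housing, whereas the CMS mice were housed singly and exposed to varied mild stressors for 4 weeks, so housing and stressors cannot be told apart. Brains were collected the day after the last stressor. The design text gives 7 mice per pool and the methods give 10 mice per group.

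Because each group had 1 array, the variation among mice is unknown and the groups were not tested against each other. A gene was counted as past 2-fold where its CMS signal was more than 2 times or less than 0.5 times its control signal. The only error that could be measured was that within the arrays. Log2 ratios of repeated spots of a probe, well above background on both arrays, varied with an SD of 0.13 (342 probes). This SD does not cover dim spots, the mice, the pooling or the labeling. Signals are given as scaled signal, the scanner's background-subtracted intensity multiplied so that the probes of each array average 2500. In a bulk sample, fewer cells of a type and less RNA per cell cannot be told apart.

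Neurons that fire let calcium in and switch on the mitogen-activated protein kinase (MAPK) pathway, in which Ras, Raf and MEK kinases pass the signal to the ERK kinases. ERK and calcium signals act on the transcription factors CREB and SRF, which start immediate early genes within minutes, without new protein being made. Some of these genes encode transcription factors, others act directly at synapses, and others encode phosphatases that remove the activating phosphates from the MAPKs and so switch the signal off again. In cortex, their RNA is widely used as a mark of recent neuronal activity. Of the genes described here, Arc, Homer1 and Nptx2 act at synapses, Npas4 is a transcription factor, Btg2, Gadd45b and Ier2 are regulators of growth and gene expression, and Dusp1, Dusp5 and Dusp6 are MAPK phosphatases.

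Most of the 10 genes had lower signals in the CMS pool. Arc and Btg2 were below 0.5 times control, 2 of 10 genes, whereas 0.564% of the 27117 genes with a ratio were (each array name without a symbol counted as a gene of its own), and none of the 10 was above 2, as 1.96% of all genes were. By a threshold of 1.5-fold, added after the values were seen, 7 of the 10 were lower and 0 higher, whereas 2.08% of all genes were lower by that much and 3.66% higher. Under normexp background correction with quantile normalization, 4 of the 10 were lower by 1.5-fold, and the median log2 ratio of all 10 was -0.43. In the main setting, the median log2 ratio of CMS over control was -0.70 over the 10 genes and -0.03 over all genes. By their brightest probes, Homer1 and Nptx2 were the genes nearest to equal signal in both pools. All 10 genes were chosen with earlier results of these data known, so these counts are a description and not independent evidence. The study had also picked Arc and Btg2 on these same arrays for its qRT-PCR. In that qRT-PCR, the paper reports lower levels of both genes in the CMS group as well. By its methods, the same mice served the arrays and the qRT-PCR.

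**Figure D1:**
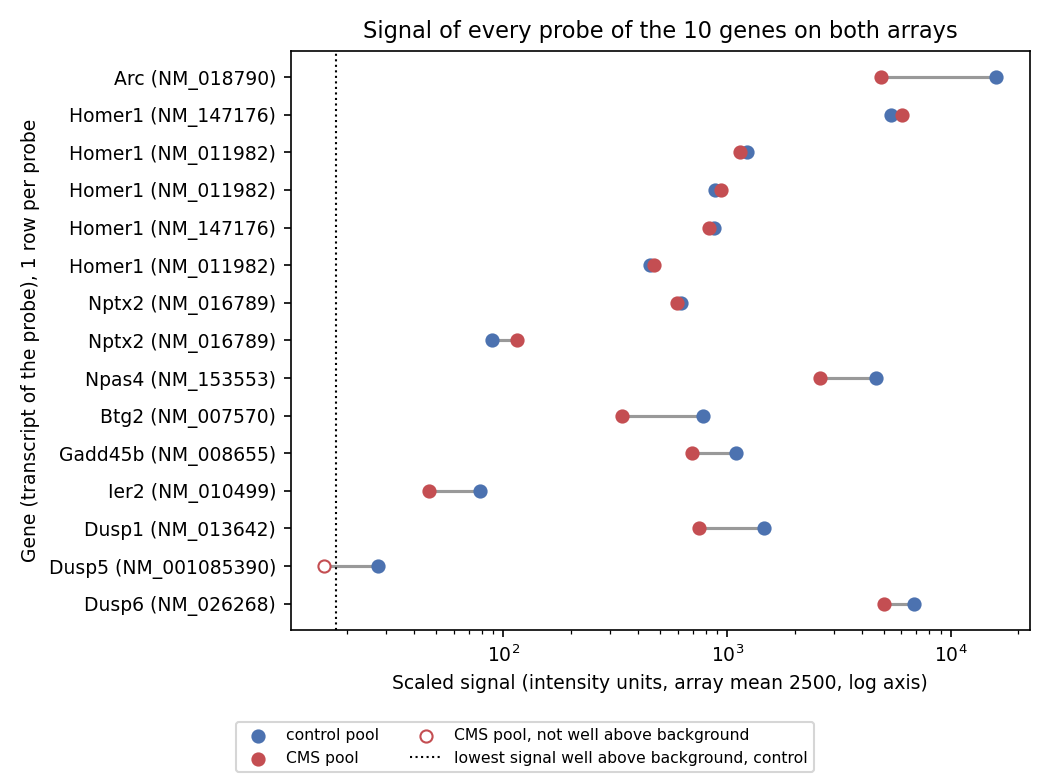
Scaled signal (log axis) of all 15 probes of the 10 genes in the control pool (blue) and the CMS pool (red), 1 row per probe, joined by a line. The CMS point lies left of the control point for every gene with a single probe, by most for Arc (15897 to 4838), while the 5 Homer1 probes nearly coincide.

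Arc binds the endocytic machinery and removes AMPA-type glutamate receptors from the synapse. Its probe (NM_018790) had a scaled signal of 15897 in the control pool and 4838 in the CMS pool. The CMS signal was 3.29 times lower (log2 ratio -1.72), and this was the lowest ratio among the 2913 genes within 2-fold of its mean signal. Among all 27117 genes with a ratio, it was the 59th from the lowest, and 0.214% of genes lay below it.

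Homer1 encodes a postsynaptic scaffold that ties metabotropic glutamate receptors to calcium stores, and neuronal activity induces a short form of it. Its 5 probes were assigned to RefSeq transcripts NM_147176 and NM_011982, and the tables used here do not say which of these is the short form. The brightest probe, of NM_147176, had a signal of 5403 in controls and 6041 after CMS (log2 ratio 0.16). The other probe of this transcript went from 869 to 828, a log2 ratio of -0.07. The 3 probes of NM_011982 had log2 ratios of -0.10, 0.08 and 0.07. The ratios of the 5 probes lay on both sides of equal signal, so that no direction can be given for Homer1. The paralogs Homer2 and Homer3 had log2 ratios of -0.19 and -0.17.

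Nptx2 encodes a secreted pentraxin that gathers AMPA receptors at excitatory synapses on interneurons. Its brighter probe had a signal of 619 in controls and 595 after CMS (log2 ratio -0.06). Its dimmer probe had signals of 88.8 and 115, a log2 ratio of 0.37. The probes differed in direction, and the mean of both was 0.15. Its paralog Nptx1 had a log2 ratio of -0.18.

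Npas4 is a transcription factor of neurons that calcium entry induces and that shapes inhibitory synapses. Its signal was 4605 in the control pool and 2584 in the CMS pool, 1.78 times lower, with a log2 ratio of -0.83. Although this did not reach 2-fold, it was the lowest of the 4307 genes within 2-fold of its mean signal. Npas1, Npas2 and Npas3, which share its protein family but are not known for induction by activity, had log2 ratios of 0.12, 0.14 and 0.01.

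Btg2 belongs to the BTG and Tob family of antiproliferative proteins, which speed the loss of poly(A) tails from mRNA. Its signal was 777 in the control pool and 339 in the CMS pool, 2.29 times lower, with a log2 ratio of -1.20. Only 3 of the other genes among 5716 within 2-fold of its mean signal had a lower ratio, since it ranked 4 from the lowest. Its relatives Btg1, Btg3, Tob1 and Tob2 had log2 ratios of -0.23, -0.05, 0.14 and -0.09.

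Gadd45b encodes a stress-responsive protein that has been linked to removal of DNA methylation at genes of active neurons. Its signal was 1094 in the control pool and 698 in the CMS pool, 1.57 times lower, with a log2 ratio of -0.65. Its relatives Gadd45g and Gadd45a had log2 ratios of -0.42 and -0.22. Ier2, an immediate early gene for a nuclear protein, was dim, with signals of 78.5 and 46.4 and a log2 ratio of -0.76. Among the 6002 genes as dim as Ier2, where ratios scatter more (SD 0.53), it ranked 112 from the lowest. The scanner software gave its signals errors of 11.8% and 14.6%. Ier3, Ier5 and Ier5l had log2 ratios of -0.17, -0.02 and -0.28.

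The MAPK phosphatases differed in size of change. Dusp1, which acts in the nucleus on several MAPKs, had a signal of 1460 in the control pool and 747 in the CMS pool, 1.95 times lower, with a log2 ratio of -0.97. This lay just short of the 2-fold threshold, and Btg2 was the member just past it. Dusp6, which acts in the cytoplasm on ERK, had the second highest control signal of the 10 genes, and its signals were 6792 and 4996, a log2 ratio of -0.44. Even so, only 7 genes of 3489 within 2-fold of its mean signal had a lower ratio, as it ranked 8 among them. Dusp5, which acts in the nucleus on ERK, had a signal of 27.6 in the control pool and was not well above background in the CMS pool, with 15.8, and the software's errors were 19.6% and 30.2%. Against the lowest signal well above background of 17.6, it was 1.57-fold lower in the CMS pool. This leaves out the error of the control signal, and under normexp background correction the log2 ratio of Dusp5 was -0.20.

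Ordered by log2 ratio, Arc came first, then Btg2, Dusp1, Npas4, Ier2, Gadd45b, Dusp5, Dusp6, Nptx2 and Homer1. The spread between spots gives the difference of 2 log2 ratios an error of 0.19. Arc lay below Btg2 by 0.52 and Btg2 below Dusp1 by 0.23, both above that error. The steps from Dusp1 to Npas4 (0.13), Npas4 to Ier2 (0.07) and Ier2 to Gadd45b (0.11) were smaller than it. The order among these 4 is therefore not settled, and Dusp5 is a bound. For the dim Ier2 and Dusp5, the scanner software gave the log2 ratios larger errors, 0.27 and 0.52. Dusp6 lay below Nptx2 by 0.38. By the scanner software's signal errors, the single log2 ratios of Btg2 and Dusp1 had errors of 0.21 and 0.20, where the spread between spots gives 0.13. Other bright members had similar errors, such as 0.20 for Arc. A difference of 2 such ratios has a larger error still. The order of Btg2 and Dusp1 is therefore not settled either.

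**Figure D2:**
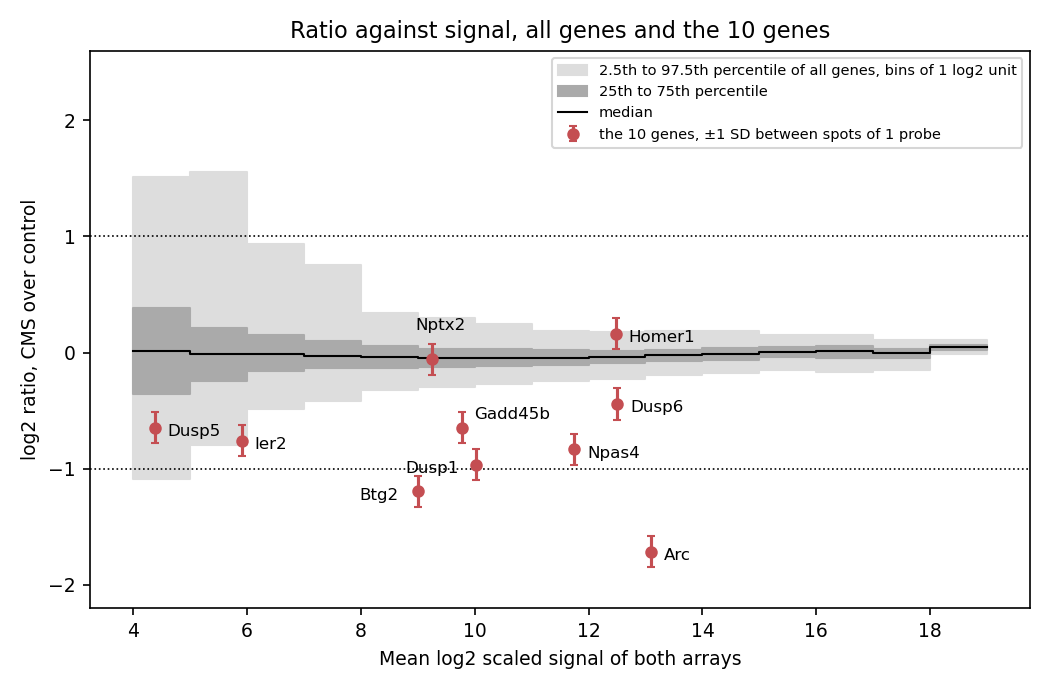
Log2 ratio of CMS over control against the mean log2 scaled signal for the 10 genes (red, ±1 SD between spots of 1 probe), over the percentiles of all genes in bins of 1 log2 unit of signal (grey). This SD comes from spots well above background, and the software's errors for the dim Ier2 and Dusp5 were larger, 0.27 and 0.52. Arc, Npas4, Btg2, Gadd45b, Dusp1 and Dusp6 lie below the 2.5th percentile of genes of like signal, and Homer1, Nptx2, Ier2 and Dusp5 lie inside the band.

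How far genes of like signal scattered between the arrays was set beside these ratios. In bins of 1 log2 unit of mean signal, 6 of the 10 genes lay below the 2.5th percentile of all genes in their bin, and 4 lay inside the central 95%. For Arc the 2.5th percentile of its bin was -0.20, and for Btg2, Gadd45b and Nptx2 it was -0.30. For the dim genes Ier2 and Dusp5 it was -0.79 and -1.09. Around each member's spot, the spots within 5 rows and 5 columns had median log2 ratios from -0.09 to 0.04. The software had already removed spatial trends from these signals.

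The members were also set beside bright genes alone. Of 9082 genes with a symbol and a mean scaled signal of at least 500, 0.0551% were below 0.5 and 0.209% were lower by 1.5-fold. Of the 8 members among them, 2 and 5 were, and Homer1 and Nptx2 were not near the lower end. The 20 lowest ratios in this set held 5 members (Arc, Btg2, Dusp1, Npas4 and Gadd45b), 6 activity-induced transcription factors (Egr2, Fos, Nr4a1, Nr4a2, Fosb and Egr4) and 5 genes of the list of other activity-induced genes described below. The rest were the olfactory bulb markers Lbhd2 and Cdhr1, and Tnfrsf25 and Ankrd33b, which belong to no list. The members and the activity-induced lists were chosen with earlier results of these data known. The share of these lists among the 9082 genes was not counted. By the original rule of a signal of at least 500 on both arrays, which removes genes that are low in the CMS pool, 8941 genes remained and the 20 lowest held 4 members, since Btg2 dropped out, and Stac3, Dbp and Ms4a15, which belong to no list, came in with Mapk12. Arc was the lowest under both rules.

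The activity-induced transcription factors of the Fos, Jun, Egr and Nr4a families, which respond to the same signals, had a median log2 ratio of -0.73 over 13 genes, and 4 were below 0.5. These were Egr2 (-1.65), Fos (-1.39), Nr4a1 (-1.25) and Junb (-1.04). Junb was the dimmest of these 4, with signals of 124 and 60.2. Another 6 were within 1.5-fold, among them Jun (-0.24), Jund (-0.03), Nr4a3 (-0.48) and Egr3, the highest, with 0.30. Nr4a3 and Egr3 were dim, with control signals of 24.6 and 23.0, and the Nr4a3 ratio is a bound.

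Of 38 other genes known to be induced by activity, 36 had a ratio, with a median log2 ratio of -0.16. Only Cyr61, a secreted matrix protein, was below 0.5, with signals of 358 and 110 and a log2 ratio of -1.71, and none was above 2. A further group lay between 1.5-fold and 2-fold lower, namely Csrnp1, Klf2, Trib1, Sik1, Per1 and Tiparp. Of these, Csrnp1, a nuclear protein, had signals of 1458 and 735. Trib1, a pseudokinase that binds MAPK kinases, had 1200 and 700. Sik1, a kinase that restrains CREB-driven transcription, had 233 and 145. Others of the list were nearly equal in both pools. The neurotrophin gene Bdnf had signals of 768 and 758, a log2 ratio of -0.02. Vgf, Nrn1, Plk2 and Ptgs2 had log2 ratios of -0.11, -0.08, -0.06 and -0.02, and Rasd1 had the highest, 0.17. The probes of Homer1 and the brighter probe of Nptx2 were likewise nearly equal in both pools. Which Homer1 probes read the form that activity induces is not known here, and the dimmer Nptx2 probe had 0.37.

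The rest of the MAPK feedback system stood closer to equal signal than Dusp1. Of 20 further genes of this kind, 0 were past 2-fold in either direction, with a median log2 ratio of -0.08. The lowest were Spry3, one of the Sprouty inhibitors of Ras signaling, with a log2 ratio of -0.59, and Dusp4, a nuclear phosphatase of ERK, with 120 and 80.9 and -0.57. The other phosphatases Dusp10, Dusp16, Dusp9, Dusp14, Dusp7, Dusp8 and Dusp2 ran from -0.40 to 0.03. Errfi1, an inhibitor of the EGF receptor, was the highest, with 0.19. Etv1, Etv4 and Etv5, transcription factors that ERK signaling drives, had -0.07, 0.08 and -0.06.

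The genes of the cascade itself centered near equal signal. The list of 40 genes ran from Ras to the targets of the MAPKs and held other branches, such as the stress branch, beside ERK. Of these genes, 0 were below 0.5, 39 were within 1.5-fold, and the median log2 ratio was -0.05. Mapk3, which encodes an ERK kinase, had a log2 ratio of 0.02, and the MEK genes Map2k1 and Map2k2 had -0.13 and -0.10. The transcription factors Srf and Creb1 had -0.29 and -0.09. The lowest were Mapk12 and Mapk13, kinases of the stress branch, with -0.54 and -0.50. Mapk13 was dim, with signals of 64.9 and 45.8, and the 2.5th percentile of its signal bin was -0.79. Rap1a was the only one above 2, with 1 probe that was not well above background in the control pool and whose CMS signal was at least 7.04-fold higher.

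RNA of the partners with which Arc, Homer1 and Nptx2 work at the synapse was also measured. Of 17 such genes, all were within 1.5-fold, with a median log2 ratio of -0.04. The AMPA receptor genes Gria1, Gria2, Gria3 and Gria4 had log2 ratios of 0.06, 0.08, -0.19 and -0.05. Grm5, a metabotropic receptor that Homer1 binds, had 0.01. Shank1, a scaffold, was the highest with 0.27. Paralogs of the 10 genes had a median of -0.17 over 15 genes, with 0 past 1.5-fold, and Gadd45g was the lowest.

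**Figure D3:**
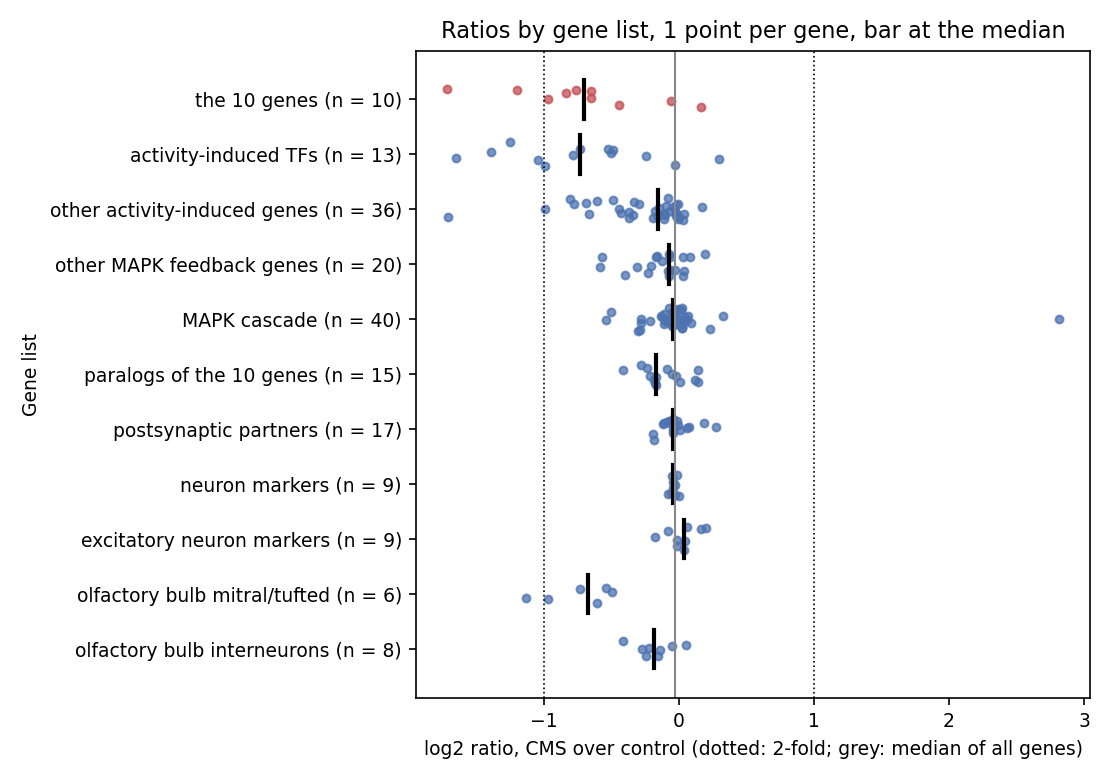
Log2 ratio of CMS over control for each gene of the lists, 1 point per gene with a bar at the median of the list (dotted lines at 2-fold, grey line at the median of all genes). The 10 genes and the activity-induced transcription factors center near -0.7, and markers of olfactory bulb mitral and tufted cells lie near -0.67. The paralogs and the other activity-induced genes center near -0.17 and -0.16, and the kinase, synapse and neuron lists lie near 0.

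Promoters were examined because several of the 10 genes had lower CMS signals together. The RefSeq promoter table of GRCm38.p6 matched 7 of the 10 genes with 8 start sites, all but Arc, Nptx2 and Ier2. The 250 bases before each start were searched on both strands. The full cAMP response element (CRE), TGACGTCA, to which CREB binds, was found for Btg2 and Dusp1 and in 1.55% of all 32851 promoters. Its core TGACG, which lies on both strands of the full element, was found in 5 of the 8 member promoters and in 17.8% of all. The CArG box, to which SRF binds, was found for Dusp5 alone, with 2 boxes, and in 1.47% of all. TATAA was found in 3 of the 8 and in 22.8% of all, and the EGR motif GCGNGGGCG in 2 of the 8 and in 4.7% of all. In Dusp5, the TATAA match lies within a CArG box. A match of letters is a description and not a bound site.

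The 200 bases before the start are shown for the genes with a CRE core or a CArG box, which are set in capitals. They are 4 genes with lower CMS signals and Homer1, whose signals were nearly equal. Btg2 lies at chr1:134079156-134079355 on the minus strand, Dusp1 at chr17:26508473-26508672 on the minus strand, Npas4 at chr19:4989972-4990171 on the minus strand, Dusp5 at chr19:53528945-53529144 on the plus strand and Homer1, first start site, at chr13:93303557-93303756 on the plus strand, all in GRCm38.p6 and written 5′ to 3′ toward the gene.
Btg2: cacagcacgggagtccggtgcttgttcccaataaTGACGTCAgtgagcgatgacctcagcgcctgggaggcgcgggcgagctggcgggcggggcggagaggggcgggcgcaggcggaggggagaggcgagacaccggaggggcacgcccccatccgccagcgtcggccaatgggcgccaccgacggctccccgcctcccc
Dusp1: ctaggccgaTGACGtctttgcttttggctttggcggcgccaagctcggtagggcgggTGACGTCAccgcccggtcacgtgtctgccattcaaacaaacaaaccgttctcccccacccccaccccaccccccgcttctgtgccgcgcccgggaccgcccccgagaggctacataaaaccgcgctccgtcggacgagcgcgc
Npas4: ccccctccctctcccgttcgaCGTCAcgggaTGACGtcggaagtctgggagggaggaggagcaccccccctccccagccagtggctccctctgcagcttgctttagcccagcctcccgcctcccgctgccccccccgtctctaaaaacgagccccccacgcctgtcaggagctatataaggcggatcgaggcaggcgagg
Dusp5: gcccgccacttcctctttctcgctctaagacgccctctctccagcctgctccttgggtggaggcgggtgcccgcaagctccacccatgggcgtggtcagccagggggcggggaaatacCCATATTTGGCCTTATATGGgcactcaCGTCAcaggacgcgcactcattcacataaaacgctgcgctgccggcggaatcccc
Homer1: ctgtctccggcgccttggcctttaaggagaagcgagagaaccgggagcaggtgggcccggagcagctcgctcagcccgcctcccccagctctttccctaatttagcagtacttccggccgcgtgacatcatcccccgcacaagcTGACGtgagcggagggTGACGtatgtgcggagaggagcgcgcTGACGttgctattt
Btg2 and Dusp1, the members with the full element, had log2 ratios of -1.20 and -0.97. Homer1 has 3 cores within 56 bases of its start, more than any other member promoter that lacks the full element, and had a log2 ratio of 0.16. Gadd45b and Dusp6 have neither a CRE core nor a CArG box in the window and had log2 ratios of -0.65 and -0.44.

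The labelled tissue was checked with marker genes. Markers of cortical excitatory neurons (9 of 9 well above background on both arrays) had a median log2 ratio of 0.04, and their summed signal was 30487 in the control pool and 30553 in the CMS pool. General neuron markers had a median of -0.04 over 9 genes with a summed signal of 318288 and 310339, and interneuron markers -0.04 over 6 genes. These lists had nearly equal signals in both pools. Markers of mitral and tufted neurons of the olfactory bulb, given below, were lower in the CMS pool. The part of neuron content in the lower signals of the members was not tested. Gapdh had log2 ratios from -0.01 to 0.11 over 7 probes, and Actb had -0.02. Astrocyte, microglia, brain endothelium, striatum and thalamus markers had medians from -0.04 to 0.06, oligodendrocyte markers -0.15 and choroid plexus markers 0.18.

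Several marker lists differed between the pools together with the members. Hepatocyte markers were higher in the CMS pool, with a median log2 ratio of 3.23 over 9 genes and summed signals of 8556 and 76107. Neutrophil markers had a median of 0.82 over 5 genes, with summed signals of 712 and 1419, and erythroid markers 0.49 over 3 genes, with 19456 and 25811. After Lbhd2 and Cdhr1 had been seen among the lowest ratios, markers of the olfactory bulb, which lies next to the PFC, were looked at. All 6 markers of its mitral and tufted cells, Tbx21, Shisa3, Lbhd2, Cdhr1, Doc2g and Eomes, were lower in the CMS pool. The median log2 ratio was -0.67, with summed signals of 5382 and 3465. Lbhd2 and Cdhr1, which prompted the list, are counted in these values. Without them, Tbx21, Shisa3, Doc2g and Eomes had log2 ratios of -1.13, -0.97, -0.54 and -0.49. Interneuron markers of the olfactory bulb had a median of -0.19 over 8 genes, with 0 past 1.5-fold, and summed signals of 20305 and 18380. Of these 8 genes, 7 were lower in the CMS pool, and Pbx3 was the lowest with a log2 ratio of -0.42. Th, an abundant transcript of bulb interneurons, was the only marker of this list that was higher, with signals of 3133 and 3250. The part of these markers in the result for the 10 genes was not tested.

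The ratios were recomputed under 12 other settings. Arc and Btg2 were below 0.5 under all of them, and Npas4, Gadd45b, Dusp1, Dusp6 and Ier2 were below equal signal under all. With no scaling between arrays, which lowered the median of all genes by 0.17 on the log2 scale, Dusp1 and Npas4 passed below 0.5 as well and Homer1 turned from 0.16 to -0.013. With the mean of all probes, Nptx2 turned from -0.06 to 0.15. With normexp background correction, the dim genes Ier2 and Dusp5 moved to -0.29 and -0.20 and 4 members rather than 7 were lower by 1.5-fold.

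**Figure D4:**
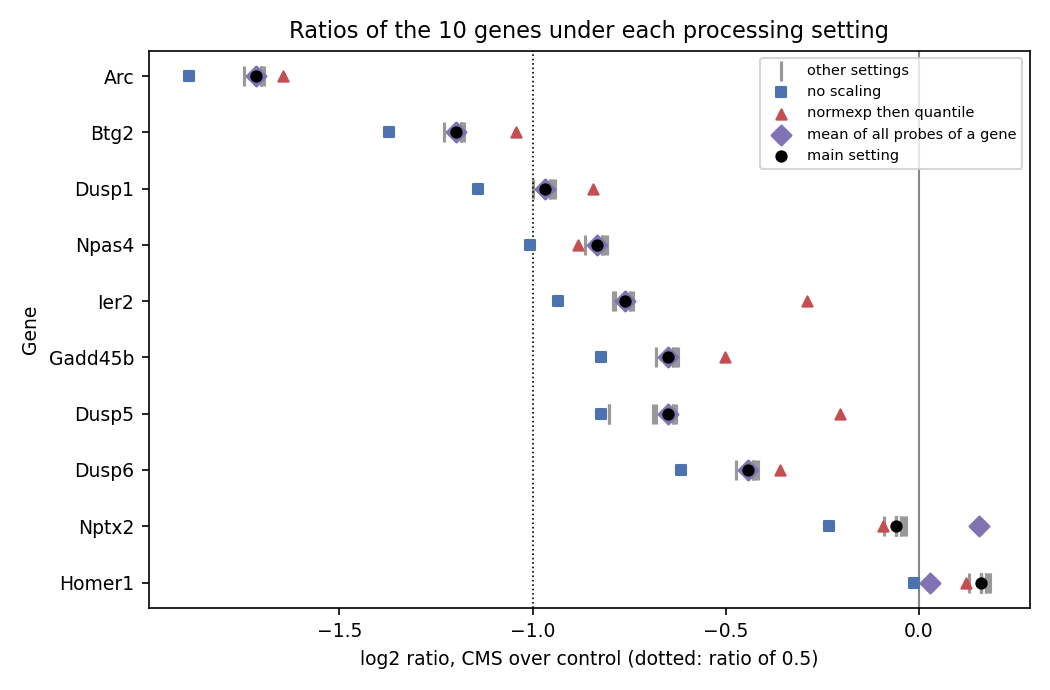
Log2 ratio of CMS over control for each of the 10 genes under the main setting (black), no scaling (blue), normexp then quantile normalization (red), the mean of all probes (purple) and the other settings (grey). Arc and Btg2 lie left of the dotted line at a ratio of 0.5 under every setting, and Ier2 and Dusp5 move most under normexp.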

How the data were processed

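RNA of the PFC was pooled per group and each pool was labeled with Cy3 and hybridized to 1 Agilent SurePrint G3 Mouse GE 8x60K array, both on 1 slide. The authors obtained background-subtracted, spatially detrended intensity values with Agilent Feature Extraction 10.10.1.1, and these deposited intensity values were used. The deposited table of intensities equals them times 1 factor per array. Here, control spots and outlier spots (130 and 133) were left out, spots of 1 probe were averaged, both arrays were brought to a mean of 2500, and CMS was divided by control on the log2 scale. Signals well above background made up 65.2% of spots for control and 65.9% for CMS, and none was saturated. The number of arrays limits the precision. Where a probe was dim on 1 array, that signal was set to the higher of its own and the lowest well-above-background signal (17.8 and 17.6). Probes dim on both arrays were left out. The brightest probe stands for a gene. Accessions were named through the RefSeq table of GRCm38.p6 (30740 of 59305 spots). The array design is of another build, so coordinates are given only for the promoter sequences, in GRCm38.p6.

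The 10 genes and all lists were chosen with earlier results of these data known, and the olfactory bulb lists and the 1.5-fold threshold after these values were seen. Of the listed symbols, 3 were not matched on the arrays. Named were all 10 genes, their paralogs, the genes of each pathway list past 2-fold or with the lowest and highest ratio, the 20 lowest ratios among bright genes, Gapdh and Actb, with most marker lists given as sums and medians, and others, chosen after their values were seen, to show the range of a list. The alternatives were the 75th percentile, the median, the trimmed mean or no scaling, quantile normalization, normexp (offset 50, on median intensities) with quantile normalization, the deposited table, other treatments of dim probes and outlier spots, and the mean of all probes. Calling was tested on simulated data that held large changes of bright genes and noise between spots alone. This does not cover changes of dim genes, changes near 2-fold, the mice, the pooling or the labeling. Python 3.11.15, numpy 2.4.6, pandas 2.3.3, R 4.3.3 and limma 3.58.1 were used.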

Additional observations from a re-analysis of the deposited data

How the results depend on the processing

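No replicate could be left out and no paired analysis was possible because each group had 1 array. Moved here means a log2 ratio that differs from the main setting by over 0.13, the SD between spots, a median that differs by over the error from this SD, or a count that differs by over 1.5 times. Unless given below, the cause was not tested. Of the values compared for the 10 genes, the counts and the list medians, 196 stayed within these limits and 43 moved, and none of those past 2-fold changed sign. Of the values of other genes, 1751 stayed and 191 moved.

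With no scaling, which shifts all genes by -0.17 by construction, Arc was -1.89, Npas4 -1.01, Homer1 -0.013, Nptx2 -0.23, Btg2 -1.37, Gadd45b -0.82, Dusp1 -1.14, Dusp5 -0.82, Dusp6 -0.62 and Ier2 -0.93, the median of the 10 was -0.88, and 4 were below 0.5. The list medians were -0.22 for the MAPK cascade, -0.25 for other MAPK feedback, -0.33 for other activity-induced genes, -0.91 for activity-induced transcription factors, -0.34 for paralogs and -0.22 for postsynaptic partners. Relative to all genes, the median of the 10 was -0.67 with and without scaling. The share of calls that were higher was 77.7% in the main setting and 63.1% with no scaling. The extremes were 58.3% (no filter) and 87.5% (normexp).

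Under normexp with quantile normalization, Btg2 was -1.04, Gadd45b -0.50, Dusp5 -0.20 and Ier2 -0.29, the median of the 10 was -0.43, 4 genes were lower by 1.5-fold, and the number of all genes past 2-fold, 685, was 303. The medians were -0.011 for the MAPK cascade, -0.11 for other activity-induced genes, -0.64 for transcription factors, -0.10 for paralogs and 0.013 for postsynaptic partners. Under scaling to the median, the MAPK cascade was -0.077 and other activity-induced genes -0.19.

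With no bound for dim probes, Dusp5 was -0.80, the median of the 10 was -0.78, that of transcription factors -0.79, and 1090 genes were past 2-fold. With no filter either, Dusp5 was -0.80, the median -0.78, and 2562 genes were past 2-fold. With dim probes of either array left out, Dusp5 had no value, the median was -0.76 and 338 genes were past 2-fold. More or fewer probes enter these settings by construction. With the mean of all probes, Nptx2 was 0.15 and the paralog median -0.089. Signal over background limits Dusp5 and Ier2 most.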
